A study of Arabidopsis thaliana with 3 samples.

Results

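The CLE genes of Arabidopsis thaliana encode small secreted signal peptides, and 9 of them were measured in the vascular tissue of cotyledons. They were chosen by name: a gene counted if its symbol is CLE plus a number and if a probe set assigned to that gene alone could be matched to it by gene ID. These 9 are among 16505 measured genes, and the current RefSeq gene table holds 30 genes with such a symbol. In all, 3 states were profiled on Affymetrix Arabidopsis Gene 1.0 ST arrays, 1 array each. The first was wild type grown with 1 µM of the peptide CEP1 in the medium, the second the mutant cepr1-1 on plain medium, and the last, the control, wild type on plain medium. All seedlings were 8 days old, and each RNA came from 200 cotyledons whose vascular strands were picked out by hand. No source used here gives the ecotypes or the nature of the cepr1-1 allele, and CEPR1 itself, the gene mutated in cepr1-1, was not analysed here.

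CLE precursors are cut to short peptides that bind receptor kinases on neighbouring cells. CLE41 and CLE44 encode the same peptide, TDIF, which is made in the phloem, binds the receptor TDR (also called PXY) on procambial cells, keeps those cells dividing and holds back their differentiation into xylem. CLE25, CLE26 and CLE45 are known from the phloem, where CLE45 acts through the receptor BAM3 to restrain sieve element formation, and CLE40 is known from the root tip, where it acts with the receptor kinase ACR4 on stem cells. CEP1 belongs to another peptide family, sent by nitrogen-starved roots and perceived in the shoot vasculature by CEPR1. The comparisons ask how each CLE gene stood when CEP1 was supplied and when its receptor was mutated.

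Values below are deposited probe set values on the log2 scale, and a difference is the CEP1 or cepr1-1 value minus the control value. With 1 array per group, no spread between replicates exists, no test was possible, and every difference is one between 2 arrays. Both comparisons use the same control array. The array medians over measured genes, 3.07 with CEP1, 3.11 in cepr1-1 and 3.07 in the control, served as a mark of dim signal. Fewer cells of a type and less RNA per cell cannot be told apart in such tissue. Of the phloem markers, SWEET11, a sugar exporter of phloem parenchyma, was 11.50 with CEP1, 11.53 in cepr1-1 and 11.47 in the control. GTR1, a glucosinolate transporter gene, was 6.45 with CEP1 and 6.08 in cepr1-1, against 6.45 in the control, and OPS, a phloem protein gene, was 2.91 on all 3.

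CLE44 was the CLE gene that differed most, and it went opposite ways in the 2 comparisons. Its value was 4.87 with CEP1 and 2.15 in cepr1-1, against 3.91 in the control. It was thus highest with CEP1, lowest in the receptor mutant and in between in untreated wild type. The difference with CEP1 was 0.96 on the log2 scale, 1.94-fold higher than the control. The difference in cepr1-1 was -1.76, 3.39-fold lower than the control. Between the outer arrays, CEP1 over cepr1-1, it was 2.72, or 6.59-fold. The cepr1-1 value lies below that array's median, where signal above background is not shown, so the size of that fold is uncertain. After 16 was added to each linear value, which shrinks differences of dim genes, the cepr1-1 difference was -0.60, short of 2-fold, and the CEP1 difference 0.54.

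CLE41, the other gene for TDIF, did not share this pattern. It was 8.31 with CEP1 and 7.96 in cepr1-1, against 7.93 in the control. The CEP1 array was the highest, by 0.38 on the log2 scale, and cepr1-1 lay 0.02 above the control. That last difference changes sign, to -0.01, when the arrays are centred on their medians. All 3 CLE41 values are far above the array medians. The 2 genes for one peptide therefore differed in the same direction with CEP1, but not in cepr1-1, where the CLE44 difference minus that of CLE41 was -1.79.

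**Figure D1:**
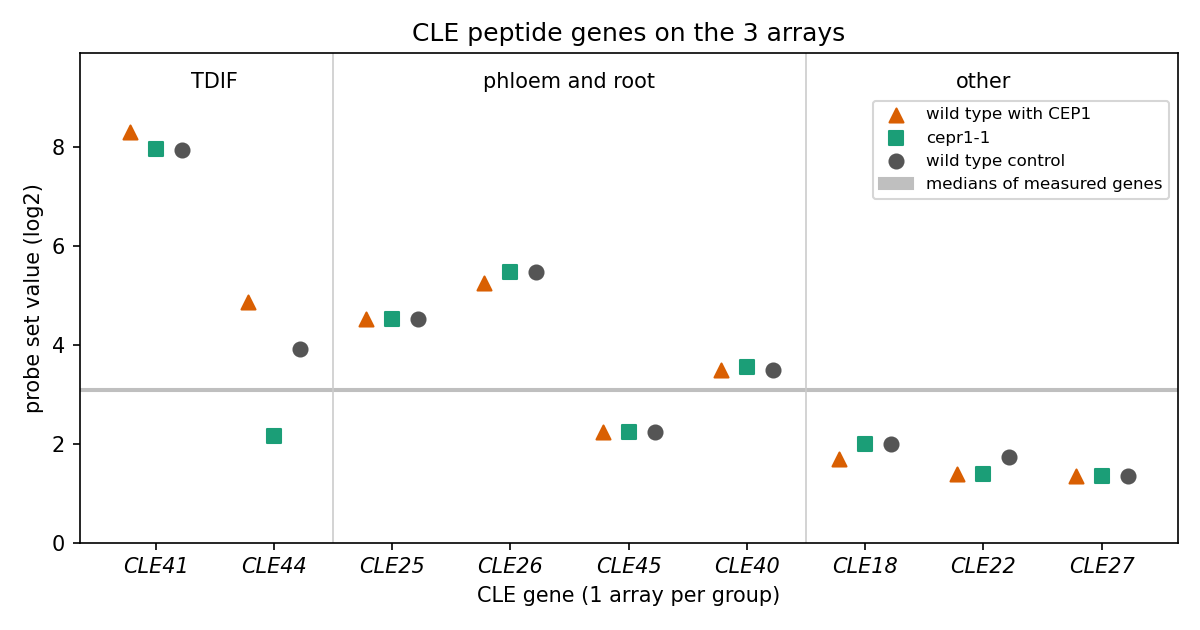
Probe set value (log2 axis) of each CLE gene on the 3 arrays, with 1 point per array and the range of the array medians as a grey line. CLE44 spans 2.15 to 4.87, whereas the 3 points of each of the other 8 genes lie within 0.38 of each other.

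The phloem and root CLE genes stood nearly level across the 3 arrays. CLE25, which is known from phloem and as a root-to-shoot signal of drought, had the identical value of 4.52 on all 3. CLE45 was likewise identical, at 2.24, below the medians. CLE26, whose peptide inhibits root growth when applied, was 5.25 with CEP1 and 5.47 in cepr1-1, against 5.47 in the control. Its CEP1 value was the lowest of the 3, by 0.22 on the log2 scale. CLE40 was 3.49 with CEP1 and 3.55 in cepr1-1, against 3.49 in the control, a difference of 0.06 in the mutant.

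The remaining 3 genes, CLE18, CLE22 and CLE27, lay under the medians on every array, as CLE45 did. In all, 4 of the 9 CLE genes (CLE41, CLE25, CLE26 and CLE40) were at or above the median on every array, where 49.1% of all measured genes were. CLE18 was 1.68 with CEP1 and 1.99 in cepr1-1, against 1.99 in the control. CLE22 was 1.39 with CEP1 and 1.39 in cepr1-1, against 1.74 in the control, so that it was lower by 0.35 in both comparisons. CLE27 was 1.35 on all 3. At this brightness neither a small difference nor an equal value says whether the gene is expressed.

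The equal values need a reading of their own, because they were common on these arrays. Of all measured genes, 54.6% had 1 value throughout the 3 arrays, and so had 3 of the 9 CLE genes: CLE25, CLE27 and CLE45. Several CLE values were also shared, to all 5 decimals deposited, with other probe sets of the same array. The CLE27 value occurred in another 398 probe sets with CEP1 and 641 in cepr1-1, against 410 in the control. The CLE25 value occurred in another 94 with CEP1 and 71 in cepr1-1, against 99 in the control. For CLE26, the value in cepr1-1 occurred in another 13 and that in the control in another 28, but that with CEP1 in 0. The CEP1 difference of CLE26 is thus one from a tied value. The CLE22 value occurred in another 49 with CEP1 and 49 in cepr1-1, but that in the control in 0. Both CLE22 differences thus set the same tied value against 1 control value. For CLE18, the value in cepr1-1 occurred in another 94 and that in the control in another 63, but that with CEP1 in 0. The CLE45 value occurred in another 16 with CEP1 and 15 in cepr1-1, against 13 in the control. The values of CLE41, CLE44 and CLE40 were shared with none. What makes the values tie was not tested, and an equal value here is not shown to mean equal expression.

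With CEP1, 0 of the 9 CLE genes reached 2-fold in either direction, where 0.357% of all measured genes did. At 1.5-fold or more, 1 was higher (CLE44), where 0.994% of all genes were, and 0 were lower, where 0.836% were. In cepr1-1, 1 was at least 2-fold lower (CLE44 again), where 0.357% of all genes were, and 0 were 2-fold higher, where 0.327% were. By size, 41 of the 16505 genes had a higher CEP1 difference than CLE44; no rank is given in cepr1-1, where its value is dim. The pattern of CLE44, 1.5-fold or more up with CEP1 and 1.5-fold or more down in cepr1-1, was found in 0.188% of genes. The median difference of the 9 was 0 in both comparisons, as it was over all genes.

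Set against each other by role, the TDIF pair lay above the phloem and root genes with CEP1 and below them in cepr1-1, the second through CLE44 alone. With CEP1 the mean difference was 0.67 for the 2 TDIF genes and -0.05 for the 4 phloem and root genes, a contrast of 0.72. Taken singly against the phloem and root mean, CLE44 was 1.01 higher and CLE41 0.43 higher. In cepr1-1 the mean difference was -0.87 for the TDIF genes and 0.02 for the phloem and root genes, a contrast of -0.88, which was -0.30 after 16 was added to each linear value, and it rests on the dim CLE44 value. There CLE44 gave -1.78 and CLE41 gave 0.01, so without CLE44 the contrast was gone. The phloem and root genes ranged from -0.22 to 0 with CEP1 and from 0 to 0.06 in cepr1-1. Of these, CLE25 and CLE45 had tied values on every array, and CLE45 lay under the medians. CLE26 had the same tied value in cepr1-1 and in the control. Such level values are not shown to mean equal expression. With CEP1 the only difference other than 0 among the 4 was that of CLE26, from a tied control value. In cepr1-1 the only such difference was that of CLE40. The mean of -0.05 thus comes from CLE26 alone and that of 0.02 from CLE40 alone. Members of a group are different genes and not replicates, so these contrasts have no error.

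**Figure D2:**
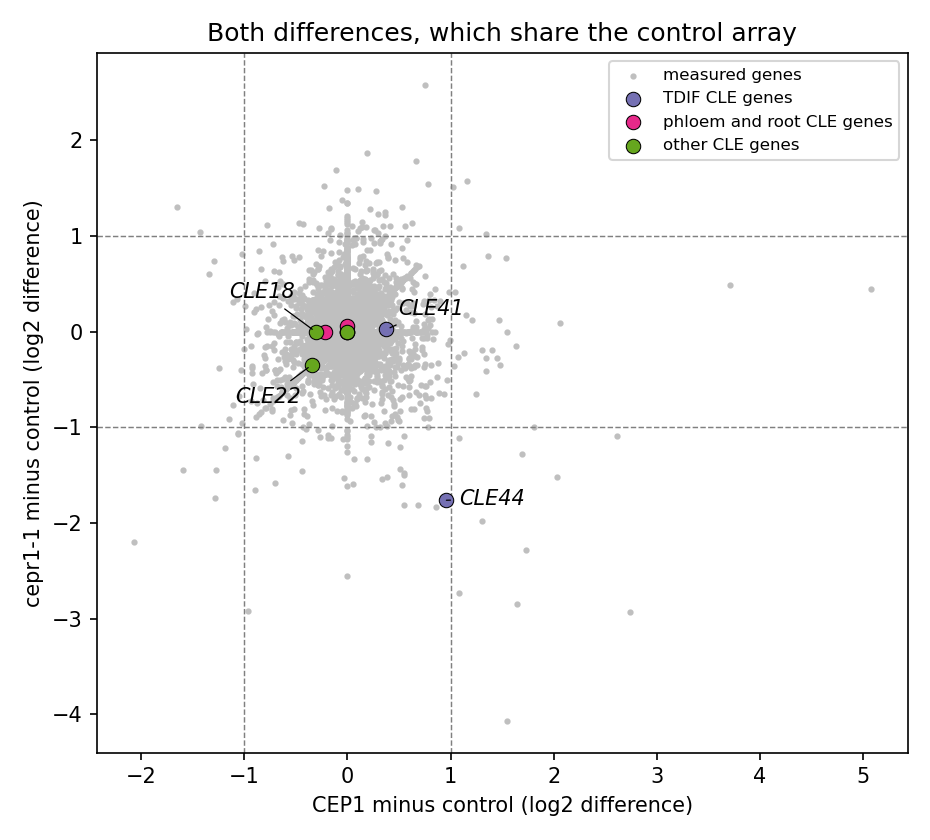
Each grey point is a measured gene, with the CEP1 minus control difference on the horizontal axis and the cepr1-1 minus control difference on the vertical axis (both log2); coloured points are the 9 CLE genes, of which CLE25, CLE27 and CLE45 coincide at 0 and dashed lines mark 2-fold. CLE44 lies at 0.96 and -1.76, apart from the other CLE genes.

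A further 7 probe sets carry a CLE symbol in the platform annotation, but their gene IDs are not in the current gene table, so they rest on the symbol alone and were looked at after the values of the 9 were known. CLE42 is the one of interest here, since it encodes a peptide nearly identical to TDIF. It was 6.01 with CEP1 and 6.19 in cepr1-1, against 6.11 in the control, differences of -0.09 and 0.08. Its signs are opposite to those of CLE44 and the sizes are small. With CLE42 counted as a TDIF gene the contrast with the phloem and root genes became 0.47 with CEP1 and -0.57 in cepr1-1. CLE1, CLE14 and CLE43 differed by at most 0.18 in size in either comparison, and CLE16, CLE20 and CLE21 had the same value on all 3 arrays. The other 14 CLE genes of the table were not analysed here.

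The data say little of the receptors and signalling steps below the peptides. Of 26 receptors and co-receptors on the pathway list, 4 were measured, and of 31 signalling and target genes, 3 were. The other 21 names, of peptide and growth genes, had 0 measured by gene ID. CLE1, CLE42 and CLE43, known by symbol only, are among those names. Of all 78 names, 7 were thus measured, and 0 of these 7 reached 2-fold or 1.5-fold in either comparison. In cepr1-1, 0.685% of all genes reached 2-fold and 2.96% reached 1.5-fold in either direction, and with CEP1 1.83% reached 1.5-fold. A count of 0 of 7 is near these shares and is no result about the pathway. TDR, BAM3, CLV1 and WOX4, the central parts of TDIF and phloem CLE signalling, are not among the 7. PXL2, a receptor kinase related to TDR, was 4.10 with CEP1 and 4.33 in cepr1-1, against 3.94 in the control. It was higher on both arrays than in the control, by 0.16 and 0.39 on the log2 scale. A dimmer probe set of the same gene had the value 1.78 on all 3. PXL1, the other TDR relative, was 3.18 on all 3, little above the medians, and its dimmer probe set was 1.99 on all 3. POL, a phosphatase of the CLAVATA pathway, was 4.14 on all 3. Such equal values are not shown to mean equal expression.

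The other 4 pathway genes lay under the medians. MOL1, a receptor kinase that restrains cambium activity, was 2.91 with CEP1 and 3.04 in cepr1-1, against 2.91 in the control. ACR4, the CLE40 receptor kinase, was 1.54 on all 3 arrays, and OPS, a phloem protein that counteracts CLE45 signalling, was 2.91 on all 3. ARR15, a cytokinin response regulator, was 1.69 with CEP1 and 1.35 in cepr1-1, against 1.69 in the control, a difference of -0.34 in the mutant at dim signal.

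The genes next to CLE44 were examined because several of them were also lower in cepr1-1, an analysis chosen after their values were seen. Among the 15 gene models on each side of CLE44 in the TAIR10.1 gene table, 16 were measured. In cepr1-1, 7 of these 16 had a difference below 0, where 17.8% of all measured genes did, and 3 were at least 1.5-fold lower, where 1.39% of all genes were. The largest of these differences was that of AT4G13180, the second gene model from CLE44, which was 5.87 with CEP1 and 3.32 in cepr1-1, against 5.87 in the control. It was 5.86-fold lower in the mutant and level with CEP1. AT4G13150 was 3.80 with CEP1 and 2.68 in cepr1-1, against 3.80 in the control. AT4G13170 was 4.94 with CEP1 and 4.08 in cepr1-1, against 4.94 in the control.

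Values below the control in cepr1-1 thus lay on both sides of CLE44, from AT4G13150 on one side to AT4G13220, with a difference of -0.52, on the other. Between them AT4G13210 was 0.16 higher. AT4G13160, AT4G13190, AT4G13200, AT4G13210 and AT4G13220 lay under the medians on every array, so their differences are uncertain. The lower neighbours above the median in the control, AT4G13150, AT4G13170 and AT4G13180, were all on the same side of CLE44. With CEP1, 0 of the 16 neighbours reached 1.5-fold in either direction, where 1.83% of all measured genes did. Equal to the control were 14 of the 16, where 71.4% of all genes were. Neither count is far from its share, so neither is a result about these neighbours. One neighbour that was not equal to the control was AT4G13190, whose gene model overlaps that of CLE44. AT4G13190 was 2.66 with CEP1 and 2.13 in cepr1-1, against 2.36 in the control. It moved in the same directions as CLE44, by 0.30 and -0.23, and whether the probe sets share signal was not tested. Over the same 15 gene models on each side of the other 8 CLE genes, 128 neighbours were measured, 12 to 20 per gene. In cepr1-1, 0 of these 128 were at least 1.5-fold lower, where 1.39% of all measured genes were. At least 1.5-fold higher were 2, where 1.58% of all genes were. A difference below 0 was found in 19, where 17.8% of all genes had one. These counts are near the shares and are no result about those neighbours.

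**Figure D3:**
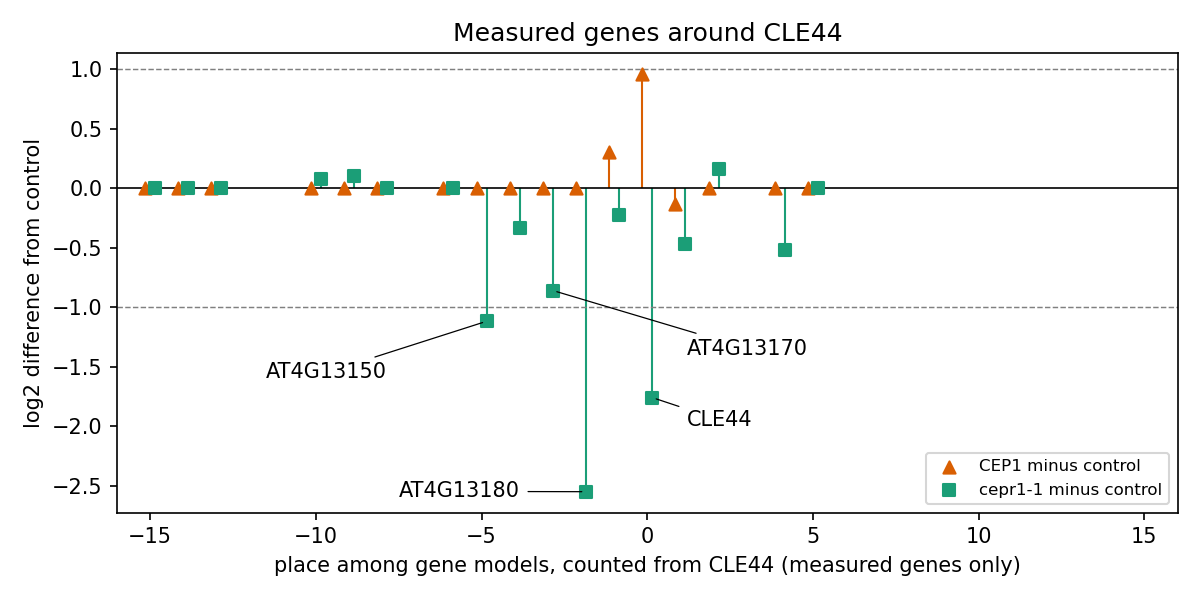
Log2 difference from control (vertical axis) of each measured gene by its place among gene models counted from CLE44 (horizontal axis), with triangles for CEP1 and squares for cepr1-1; dashed lines mark 2-fold. In cepr1-1 the low values run over several neighbours, with AT4G13180 at -2.55, while with CEP1 CLE44 at 0.96 stands over neighbours between -0.13 and 0.30.

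Genes whose pair of differences was most like that of CLE44 were sought among 1063 genes with a symbol and a mean at or above the median, by Euclidean distance over the 2 differences (3 arrays). The nearest was SWEET13, a sugar exporter, at a distance of 0.41, with 6.50 with CEP1 and 4.14 in cepr1-1, against 5.95 in the control. Next came the glucosinolate transporter gene GTR2, at 0.50, with 11.07 with CEP1 and 9.04 in cepr1-1, against 10.51 in the control. Both were higher with CEP1 by 0.55, less than CLE44. SWEET4, also a sugar transporter gene, followed at 0.88, with 8.33 with CEP1 and 5.36 in cepr1-1, against 6.64 in the control. ACA.l, at 0.97, was level with CEP1 and -1.62 in cepr1-1. ATSK12, a shaggy-related protein kinase, at 1.05, was 0.70 with CEP1 and -0.74 in cepr1-1.

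**Figure D4:**
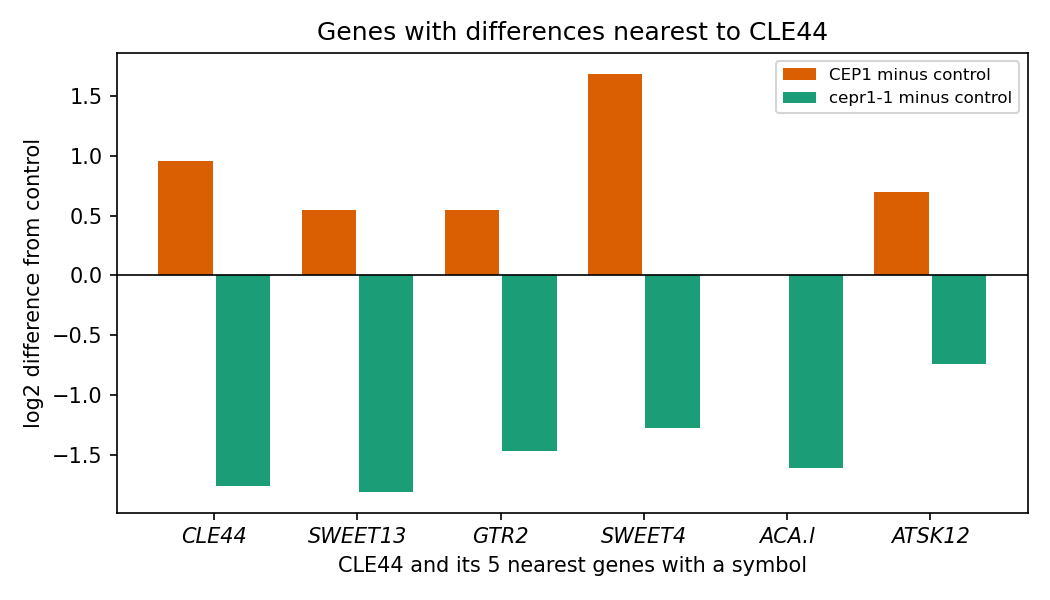
Log2 differences from control (vertical axis) of CLE44 and of its 5 nearest genes with a symbol, with CEP1 as the left bar and cepr1-1 as the right bar of each gene. SWEET13 and GTR2 have CEP1 bars of 0.55, shorter than that of CLE44, and ACA.l has a CEP1 difference of 0.

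By the same distance, the genes most like CLE41 were also sought. Among the same candidates 4 lay within 0.05 of it: NUP1, a nuclear pore gene, POLA3, a subunit gene of DNA polymerase alpha, GH9C2, a glycosyl hydrolase gene, and SEH, an epoxide hydrolase gene. The fifth nearest was MSRB5, a methionine sulfoxide reductase gene. NUP1 was 6.38 with CEP1 and 6.06 in cepr1-1, against 6.02 in the control.

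Some markers of other leaf cells also differed between these arrays, while others were equal to the control in a comparison or on all 3 arrays. Of 11 mesophyll markers 3 were measured, and their summed linear signal was 892 with CEP1 and 1186 in cepr1-1, against 959.9 in the control. In cepr1-1 the 3 genes, all of the Calvin cycle or its activation, differed by 0.69 (SBPASE), 0.21 (RCA) and -0.03 (PRK), so that 1 of the 3 was 1.5-fold higher, where 1.58% of all measured genes were. Of 15 phloem markers other than CLE genes 3 were measured, with sums of 2993 with CEP1 and 3039 in cepr1-1, against 2937 in the control, nearly all of it SWEET11. The xylem and procambium list had 1 measured marker of 17, LHW, a transcription factor gene of vascular initials, which was 5.98 on all 3 arrays. FAMA, the guard cell regulator and the 1 measured epidermis and guard cell marker used, was 4.86 with CEP1 and 5.37 in cepr1-1, against 5.37 in the control. The part of the tissue mix in the CLE44 differences was not tested.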

How the data were processed

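RNA of 3 samples was hybridised to 1 array each. The authors deposited 1 value per probe set and array, taken as log2 from its range. Per the submitters' processing notes the tool was Affymetrix Expression Console 1.3; no source used here gives the background correction, normalization or summary. The number of arrays limits the precision.

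Of 38408 probe sets, the platform annotation gives a single gene for 16722. Of these, 16574 were matched to the TAIR10.1 RefSeq gene table by gene ID and 96 by locus. A locus was represented by its brightest probe set by mean, leaving 16505 genes. No source used here names the array's genome build, so the table served for names and gene order.

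Differences, counts at 2-fold and 1.5-fold and sums were computed in Python 3.11.15 with pandas 2.3.3. The size rule was tested on simulated data, with random noise of one size for all genes. Differences were planted there only in genes at or above the median level, and no values were tied. The simulation therefore says nothing of the rule at dim or tied values. Alternatives were quantile normalization, median centring, removal of a trend with level (statsmodels 0.14.6), a pseudocount of 16, the mean of a gene's probe sets, and other size rules and groupings.

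Named genes were the 9 CLE genes, measured pathway genes that were 1.5-fold apart or among the 4 brightest of their subgroup, the 5 genes nearest to CLE41 and CLE44, and measured cell type markers. CLE42 and the other CLE probe sets known by symbol only, and the neighbours of CLE44, were named after their values were seen. Members and lists were chosen with earlier results of these data known. The marker name FDH met formate dehydrogenase, not the epidermal gene meant, and was left out. A peptide gene subgroup of the pathway list had no member measured by gene ID.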

Additional observations from a re-analysis of the deposited data

How the results depend on the processing

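No paired analysis was possible because each group has 1 array. Of 136 alternative values for 24 results, 123 stayed within 0.2 on the log2 scale (a chosen tolerance, since no replicate spread exists) or within 1.5 times a count. A pseudocount of 16, which by construction shrinks differences of dim genes, gave 0.54 with CEP1 and -0.60 in cepr1-1 for CLE44, -0.056 with CEP1 for CLE18 and -0.054 in both comparisons for CLE22. It left 0 CLE genes 2-fold apart in cepr1-1 and gave 0.49 with CEP1 and -0.30 in cepr1-1 for the TDIF genes minus the phloem and root genes. The 1.5-fold rule gave 1 CLE gene with CEP1 in place of 0. In 2 alternatives chosen after seeing the data, that contrast was 0.47 with CEP1 and -0.57 in cepr1-1 with CLE42 added, and 0.43 with CEP1 and 0.009 in cepr1-1, with the sign turned, without CLE44. Quantile normalization, median centring and trend removal moved no CLE difference by 0.2 or more. Trend removal could move little, since 71.4% of all differences with CEP1 and 62.3% in cepr1-1 were 0. It left each CEP1 difference of the 9 unchanged and in cepr1-1 shifted only CLE41, from 0.02 to 0.03. The mean of probe sets could move none, since each of the 9 CLE genes has 1 probe set. Median centring could move no CEP1 difference, since the medians with CEP1 and in the control were both 3.07. A difference of 0, as for CLE25, CLE27 and CLE45, also stays 0 under a pseudocount. Such values, fixed in advance, are among the 123 and say nothing of stability. Signal over background could not be given, since no background values were used here.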
